A study of Serinus canaria and Ploceus bicolor and Uraeginthus cyanocephalus with 155 samples.

Results

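The 100 transcripts described here were those whose levels were lowest in breeding relative to non-breeding female canaries in every brain region measured. For each of 26061 transcripts the mean log2 level of non-breeding females was subtracted from that of breeding females in HVC, entopallium and cerebellum, the highest of the 3 differences was taken, and the 100 transcripts with the lowest such value were kept. The members were thus chosen by the female season values themselves, which are given as a description without a test. The males, which the selection did not use, carry the tests.

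The levels came from 155 arrays of canaries (Serinus canaria), blue-capped cordon-bleus and forest weavers, of which 107 were canary arrays, each of 1 tissue of 1 bird. Breeding canaries were adults on long days, and of these the males sang and the females did not. Testosterone-treated canaries of both sexes were adults on short days that carried a testosterone implant and sang. A further group of females sang spontaneously on short days without an implant. Non-breeding canaries of both sexes were adults on short days, without an implant and without song. Breeding birds lived in pairs and non-breeding birds were kept alone in sound-attenuated boxes, so day length, season and housing cannot be told apart in either sex, and singing joins them in males. Each group held 6 arrays per region, except the non-breeding females of the entopallium with 5. Cerebellum was measured only in untreated breeding and non-singing non-breeding birds. In all groups with the exception of the breeding males, 5 or 6 bird numbers recurred between HVC and entopallium, so these regions are mostly not independent birds.

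Canaries breed under lengthening days, when the gonads grow and circulating sex steroids increase. HVC is a forebrain nucleus of the song control system whose neurons carry androgen receptors and which enlarges under testosterone, also in females, which then sing. The entopallium is a visual forebrain area and the cerebellum a motor structure of the hindbrain, and neither belongs to the song control system.

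The deposited tables give transcripts by identifier without gene names, and 0 of the identifiers matched the 17915 genes of the canary reference table. The members are therefore described by identifier, and no function is assigned to them. Of the 100 members, 54 carried the prefix of RefSeq predicted messenger RNAs (40.2% of all transcripts) and 36 that of Ensembl zebra finch transcripts (45.8% of all). Another 5 carried the prefix of RefSeq predicted non-coding RNAs (3.43% of all), 3 that of Ensembl chicken transcripts, 1 that of opossum transcripts and 1 that of a GenBank complementary DNA. Whether several members belong to the same gene is not known. The markers by which HVC, entopallium and cerebellum could be checked against their labels could not be identified either.

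In females the season difference of the members had a median of -0.57 in HVC (range -1.71 to -0.31), -0.55 in the entopallium (-2.71 to -0.31) and -0.39 in the cerebellum (-1.46 to -0.30), all on the log2 scale as breeding minus non-breeding. The medians over all transcripts were -0.01, 0.03 and 0.00, in the same order of regions. The cerebellum set the limiting value for 68 members, the entopallium for 17 and HVC for 15. The 3 members just inside the limit had a highest difference of -0.304, -0.304 and -0.302, and the next 3 transcripts outside it had -0.300, -0.298 and -0.298. In all, 4218 transcripts had a lower mean in breeding females in each of the 3 regions. Levels of breeding females lay wholly below those of non-breeding females for 51 members in HVC, 41 in the entopallium and 10 in the cerebellum, whereas 6.61%, 5.81% and 0.48% of all transcripts did so. Since these arrays chose the members, nothing is read from those counts. Fewer cells of a type and less RNA per cell cannot be told apart in such dissected tissue.

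ENSTGUT00000003958 and XM_002189682 led the selection. In the entopallium ENSTGUT00000003958 had levels of 1.85 to 5.47 (median 4.16) in breeding females, against 6.08 to 7.07 (median 6.42) in non-breeding females. In HVC it had 4.12 to 6.01 (median 4.48) in breeding females, against 5.96 to 6.92 (median 6.38) in non-breeding females. The groups were apart in the entopallium and overlapped in HVC through a single breeding female at 6.01. XM_002189682 had cerebellar levels of 3.16 to 6.75 (median 5.61) in breeding females, against 6.28 to 7.33 (median 6.80) in non-breeding females, and these overlapped. Its entopallial levels of 3.93 to 5.93 (median 5.42) in breeding females lay below the 6.37 to 7.37 (median 6.87) of non-breeding females.

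**Figure D1:**
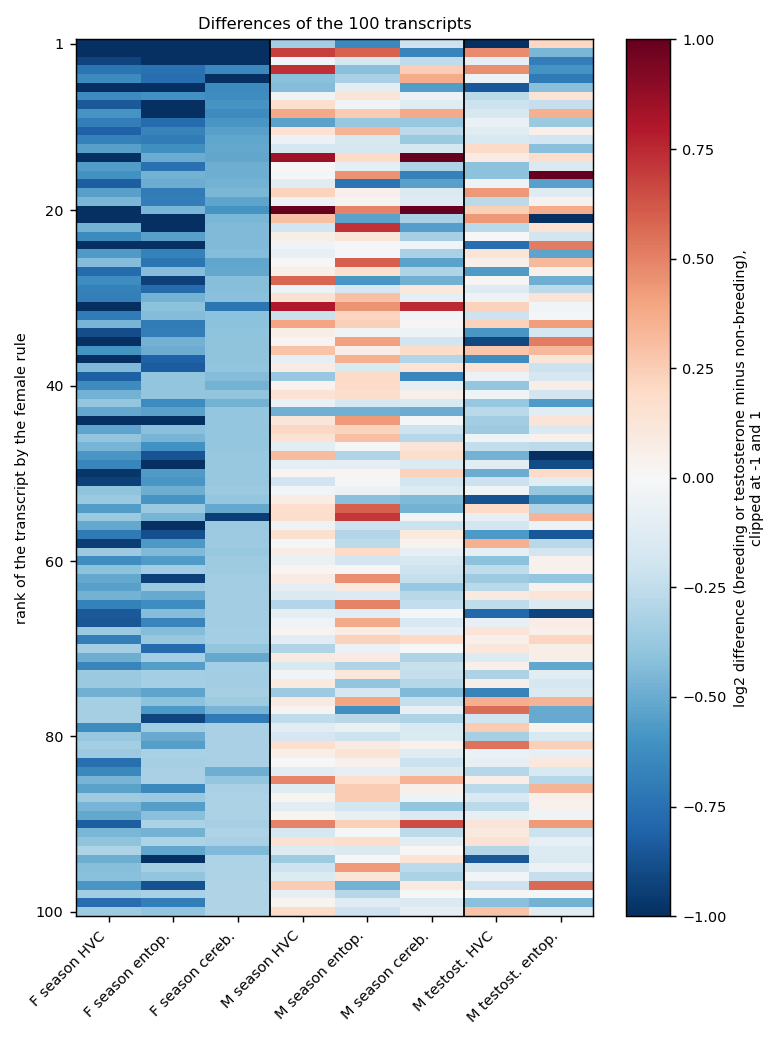
Log2 differences of the 100 transcripts, 1 per line in the order of the selection, for season (breeding minus non-breeding) in females and males and for testosterone (implanted minus non-breeding) in males, with colours clipped at -1 and 1. The female columns are below 0 by the selection, whereas the male season columns hold both signs, with 50 members below 0 in HVC, 50 in the entopallium and 76 in the cerebellum.

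The members gave dimmer and more variable signals than most transcripts of the array. Their mean log2 level over the canary arrays had a median of 6.56, against 7.36 for all transcripts, and ranged from 2.38 to 10.7. Signals of different transcripts depend on their probes, so these levels do not rank abundance. With transcripts ranked by level, 41 members fell in the lowest quartile, 26 in the second, 23 in the third and 10 in the highest. The within-group standard deviation over the 48 male arrays, which the selection did not use, had a median of 0.280 among members and 0.143 among all transcripts. For 59 members it was above 0.250, the 90th percentile of all transcripts. In testosterone-treated and spontaneously singing females the medians were 0.305 for the members and 0.152 for all transcripts. The larger spread held at every level, since members of the lowest quartile had a median standard deviation of 0.399, against 0.174 for all transcripts of that quartile, and members of the highest quartile had 0.198, against 0.129. The part of this spread in the selection of the members was not tested.

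**Figure D2:**
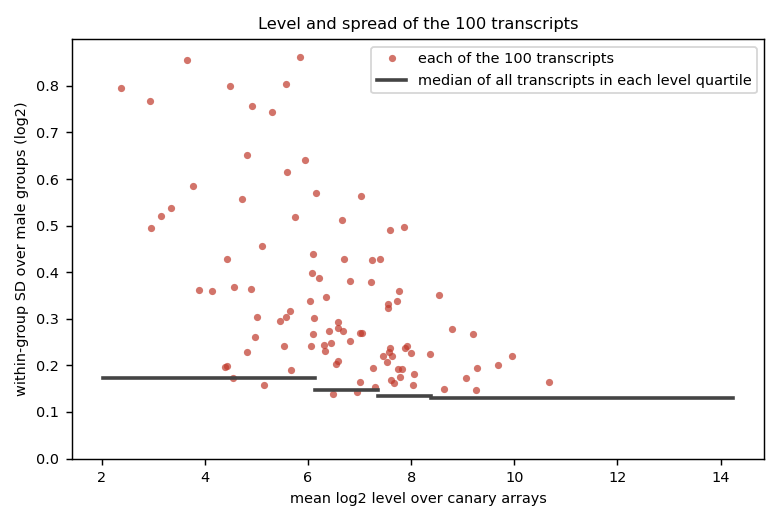
Mean log2 level over the canary arrays (horizontal) and within-group standard deviation over the male groups (vertical) of each of the 100 transcripts, with the median standard deviation of all transcripts in each quartile of level as lines. The points crowd above the lines, which run from 0.174 in the lowest to 0.129 in the highest quartile, and 59 of them exceed 0.250.

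The first question was whether the season difference of females was also present in males. In HVC the member medians by array spanned 6.48 to 6.83 in breeding males and 6.46 to 6.77 in non-breeding males. The groups overlapped. The season difference of the members had a median of 0.00 in male HVC, against -0.01 for all transcripts, and it was below 0 for 50 members, compared with 53.7% of all transcripts. A transcript was called changed when the limma test across all transcripts gave an adjusted p under 0.05 and when its log2 difference was at least 0.5 in size. In HVC 0 members were called, where 0.0192% of all transcripts were. At an unadjusted p under 0.05, 5 members were lower and 7 higher, where 5.87% and 4.43% of all transcripts were, and limma with a trended and robust variance also called 0. Without replicate 4 of the breeding males, 1 member was called lower.

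The members with the lowest and highest season difference in male HVC, singled out after their values were seen, were XM_002194992 and ENSTGUT00000002656. XM_002194992 had levels of 2.76 to 4.63 (median 3.23) in breeding males, against 3.08 to 5.13 (median 3.89) in non-breeding males, a log2 difference of -0.53 (SE 0.39, limma adjusted p = 0.673). ENSTGUT00000002656 had 7.68 to 10.05 (median 8.05) in breeding males, against 6.89 to 7.72 (median 7.49) in non-breeding males, a log2 difference of 1.11 (SE 0.34, limma adjusted p = 0.300). Both pairs of groups overlapped, the second by the margin of 1 bird on each side. In females, whose values chose ENSTGUT00000002656 as lower with breeding, HVC levels were 7.04 to 8.75 (median 7.71) with breeding and 8.74 to 9.34 (median 9.06) without. The opposite order of the sexes is thus set by the selection, and nothing is read from it.

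In the entopallium, 3 members were called in males, 1 lower and 2 higher with breeding, where 0.353% and 0.66% of all transcripts were called lower and higher. At an unadjusted p under 0.05, 11 members were lower and 20 higher, where 16.0% and 12.9% of all transcripts were. With the limma adjusted p alone, 4 were lower and 9 higher, where 7.02% and 6.89% of all transcripts were. The part of the larger spread of the members in this call count was not tested. The median difference was 0.00 for the members and -0.02 for all transcripts, and 50 members were below 0, compared with 56.0% of all transcripts. XM_002199687 had levels of 5.89 to 6.59 (median 6.23) in breeding males, against 6.50 to 7.12 (median 6.92) in non-breeding males. It fell by 0.61 on the log2 scale (SE 0.14, limma adjusted p = 0.0112), and its groups overlapped slightly.

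XR_054840 and ENSTGUT00000004824 went the other way in the male entopallium. XR_054840 had levels of 6.70 to 7.42 (median 7.25) in breeding males, against 5.89 to 6.76 (median 6.47) in non-breeding males, a log2 difference of 0.72 (SE 0.15, limma adjusted p = 0.00905). ENSTGUT00000004824 had 8.49 to 9.11 (median 8.82) in breeding males, against 8.06 to 8.34 (median 8.29) in non-breeding males, a log2 difference of 0.59 (SE 0.09, limma adjusted p = 0.00180). XR_054840 overlapped slightly between its groups and ENSTGUT00000004824 did not. In females, whose values chose both, the same region had a log2 difference of -1.40 for XR_054840 and -0.37 for ENSTGUT00000004824. Breeding levels lay wholly below non-breeding levels in males for 1 member and wholly above for 7, where 3.65% and 3.76% of all transcripts did. The call count was 5 without replicate 3 or 4 of the breeding or replicate 1 or 5 of the non-breeding males.

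In the cerebellum 76 members had a lower mean in breeding males, compared with 45.9% of all transcripts, and the median difference was -0.15 for the members and 0.01 for all transcripts. Member medians by array spanned 6.55 to 6.88 in breeding males and 6.75 to 6.998 in non-breeding males, and these overlapped. By the limma test 0 members were called, where 0.0115% of all transcripts were. At an unadjusted p under 0.05, 17 members were lower and 4 higher, where 3.42% and 4.65% of all transcripts were, and the trended and robust test called 0. Without replicate 6 of the breeding males, 2 members were called, 1 in each direction. By quartile of level the median was -0.14, -0.19, -0.15 and -0.14 from the lowest quartile to the highest. The quartiles rest on the same arrays, so these values are not independent of one another.

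ENSTGUT00000014768 and ENSTGUT00000002656 were the members with the lowest and highest season difference in the male cerebellum, again singled out after their values were seen. ENSTGUT00000014768 had levels of 3.84 to 5.43 (median 4.40) in breeding males, against 3.22 to 5.99 (median 5.43) in non-breeding males, a log2 difference of -0.67 (SE 0.41, limma adjusted p = 0.768). ENSTGUT00000002656 had 7.54 to 9.12 (median 8.73) in breeding males, against 6.39 to 7.56 (median 7.31) in non-breeding males, a log2 difference of 1.36 (SE 0.29, limma adjusted p = 0.143). Its groups overlapped by a single bird on each side.

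**Figure D3:**
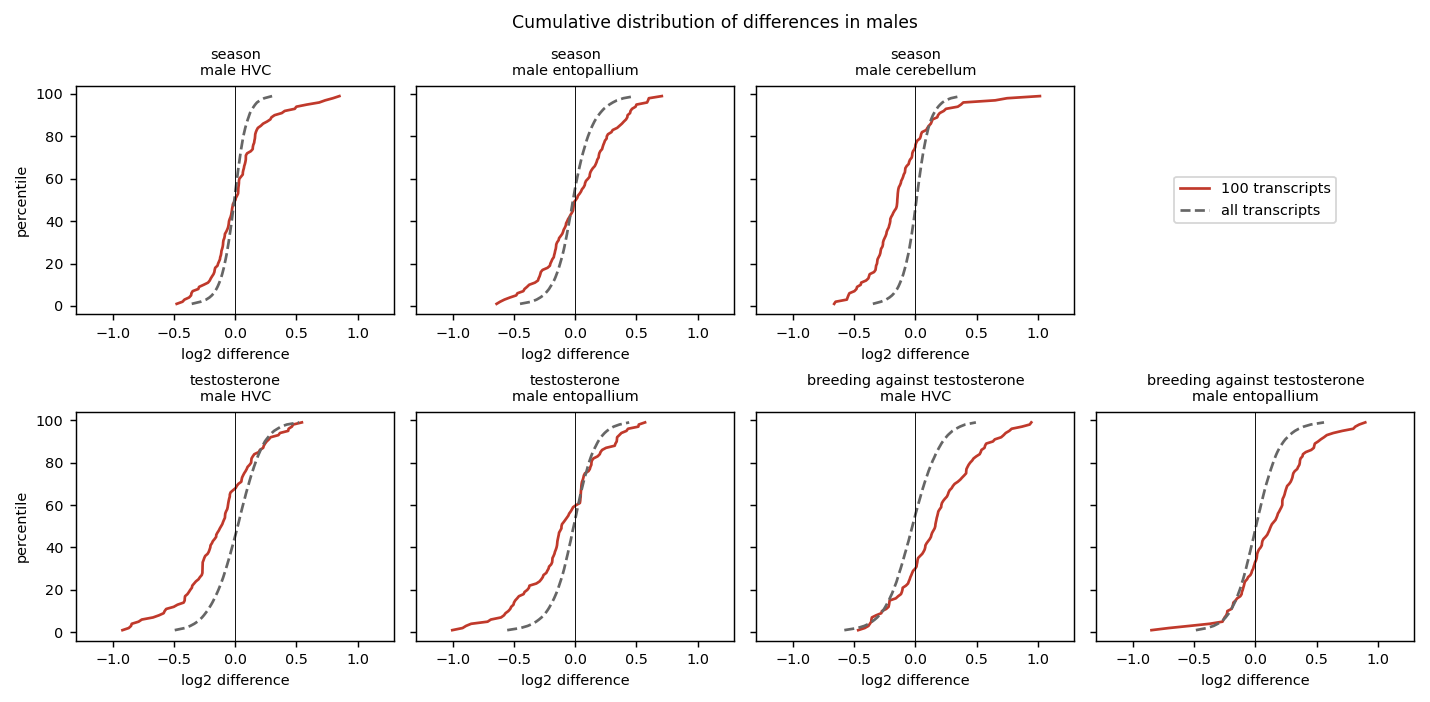
Cumulative percentiles (vertical) of the log2 differences (horizontal) in males for the 100 transcripts and for all 26061 transcripts, for season, for testosterone against non-breeding and for breeding against testosterone. The member curve lies left of all transcripts over most of its course for season in the cerebellum (median -0.15) and for testosterone in both regions (medians -0.12 and -0.11), and right of it for breeding against testosterone (medians 0.16 and 0.13).

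Over the 3 regions, 28 members had a lower mean in breeding males in each, where 15.4% of all transcripts did, and 11 a higher mean in each, where 13.3% did. Another 31 were lower in a pair of regions and 30 in a single region. With the same selection made in males, 4 members were among the 100 transcripts chosen, 4% of each list, where each list holds 100 of all 26061 transcripts. The part of the larger spread of the members in this overlap was not tested. The limit of the male selection was -0.18, against -0.30 in females. A difference at or below the female limit in all 3 male regions was found for 2 members, where 0.0652% of all transcripts had it. These were XM_002194992, with -0.53, -0.38 and -0.38 in HVC, entopallium and cerebellum, and ENSTGUT00000014811, with -0.48, -0.48 and -0.49, both named after their values were seen. ENSTGUT00000014811 had HVC levels of 5.65 to 6.269 (median 5.88) in breeding males, against 6.270 to 6.57 (median 6.35) in non-breeding males, so that the groups met without overlap. It was not called in any of the 3 regions.

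Whether the male season difference differed between regions was tested by the interaction of region and season in limma. Between HVC and the entopallium 2 members were called, both with a lower value in HVC, where 0.537% of all transcripts were called lower. XR_054840 differed by -0.91 (SE 0.25, limma adjusted p = 0.0489) and ENSTGUT00000005557, chosen after its values were seen, by -0.79 (SE 0.15, limma adjusted p = 0.00363). The non-breeding males shared bird numbers between these regions, whereas the breeding males shared 0. By these numbers the breeding males were different birds, and set of birds and region cannot be told apart among them. With bird as a random block the count was also 2. It was 1 without replicates 2, 3 or 6 of the breeding or 1, 3, 4 or 6 of the non-breeding males in HVC, or without replicates 1, 4, 5 or 6 of the breeding or 2, 3, 5 or 6 of the non-breeding males in the entopallium, and 3 without replicate 4 of the breeding males in HVC. Between HVC and cerebellum 0 members were called, where 0.00384% of all transcripts were. There 0 members were lower and 9 higher in HVC at an unadjusted p under 0.05, where 4.65% and 2.8% of all transcripts were, and the trended and robust test called 0. The cerebellum labels carry no bird numbers, so birds shared with the other regions are unknown.

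Between the entopallium and the cerebellum 8 members were called, all with a higher season difference in the entopallium, where 1.19% of all transcripts were called higher. XR_054840 differed by 1.27 (SE 0.38, limma adjusted p = 0.0432) and ENSTGUT00000004824 by 1.07 (SE 0.21, limma adjusted p = 0.00404). In the cerebellum XR_054840 had levels of 4.94 to 6.98 (median 6.44) in breeding males, against 5.99 to 7.34 (median 6.86) in non-breeding males, so that its order was the reverse of that in the entopallium, although the groups overlapped. ENSTGUT00000004824 had 6.59 to 7.77 (median 7.22) in cerebella of breeding males, against 7.35 to 7.91 (median 7.74) in non-breeding males, also overlapping and also in reverse order. The count was 4 or 5 without replicates 2, 3 or 5 of the breeding or 3 or 5 of the non-breeding males in the cerebellum, or without replicates 2 or 4 of the breeding or 2 or 3 of the non-breeding males in the entopallium. It was 14 without replicate 6 of the breeding males in the cerebellum.

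The next comparison concerned testosterone, which was given to males on short days. It shares the non-breeding males with the season comparison. The treated males carried an implant and sang, whereas the non-breeding males did neither. No group with an empty implant is among the samples, so testosterone, implantation and singing cannot be told apart here. In HVC 9 members were called, all lower with testosterone, where 0.491% of all transcripts were called lower and 0.695% higher. The members had a median difference of -0.12, against 0.02 for all transcripts, and 68 were below 0, compared with 45.7% of all transcripts. At an unadjusted p under 0.05, 28 members were lower and 4 higher, where 12.8% and 13.2% of all transcripts were. By the limma adjusted p alone, 12 were lower and 1 higher, where 3.42% and 3.21% of all transcripts were. The part of the larger spread of the members in the call count in HVC was not tested. Member medians by array spanned 6.31 to 6.55 in testosterone-treated males and 6.46 to 6.77 in non-breeding males, which overlapped. The called members came from every quartile of level, with 4, 2, 2 and 1 from the lowest to the highest, all on the same arrays. The count was 4 or 5 without any 1 of the 6 non-breeding males or without replicate 2, 3 or 4 of the testosterone-treated males.

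ENSTGUT00000003958, the first transcript of the selection, had HVC levels of 3.16 to 6.53 (median 4.79) in testosterone-treated males, against 6.31 to 7.44 (median 6.78) in non-breeding males. It fell by 1.99 on the log2 scale (SE 0.52, limma adjusted p = 0.0400). The treated males were spread, with 3 birds at 3.16, 3.53 and 3.85 and the other 3 at 5.73, 6.04 and 6.53, and the groups overlapped. ENSTGUT00000001257 had 4.79 to 6.32 (median 5.41) in testosterone-treated males, against 6.13 to 6.93 (median 6.46) in non-breeding males. It fell by 0.91 (SE 0.25, limma adjusted p = 0.0449), and its groups overlapped as well. Both calls were at the edge of the threshold. The adjusted p of ENSTGUT00000003958 was 0.0561 to 0.0920 without any 1 of the 6 non-breeding males or without replicate 1, 2 or 4 of the treated males. That of ENSTGUT00000001257 was 0.0619 to 0.102 without any 1 of the non-breeding males or without replicate 1, 2, 3 or 4 of the treated males. The fall was not seen in the entopallium of treated males. There the log2 difference was 0.20 for ENSTGUT00000003958 and 0.51 for ENSTGUT00000001257, and neither was called.

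In the entopallium 9 members were called, 8 lower and 1 higher with testosterone, where 1.06% and 0.426% of all transcripts were. At an unadjusted p under 0.05, 23 members were lower and 8 higher, where 19.4% and 16.2% of all transcripts were. With the limma adjusted p alone, 13 were lower and 3 higher, where 11.3% and 9.56% of all transcripts were. The part of the larger spread of the members in the call count was not tested. The median difference was -0.11 (-0.06 under quantile normalization), against -0.01 for all transcripts, and 60 members were below 0, compared with 53.6% of all transcripts. Testosterone-treated males lay wholly below non-breeding males for 10 members and wholly above for 1, where 4.9% and 4.3% of all transcripts did. Entopallial arrays of testosterone-treated males had a 1st percentile of level of 2.73 to 2.82, below the 2.91 to 3.01 of non-breeding males. The part of this offset in these values was not tested. XM_002194149 had levels of 5.11 to 5.88 (median 5.73) in testosterone-treated males, against 6.04 to 7.31 (median 6.79) in non-breeding males. It fell by 1.01 on the log2 scale (SE 0.20, limma adjusted p = 0.00557) without overlap.

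ENSTGUT00000012800 had entopallial levels of 4.97 to 5.87 (median 5.39) in testosterone-treated males, against 6.17 to 6.55 (median 6.28) in non-breeding males. It fell by 0.92 on the log2 scale (SE 0.13, limma adjusted p = 0.000956), again without overlap. The single member that rose was ENSTGUT00000014768, with 5.18 to 6.25 (median 5.54) in testosterone-treated males, against 3.50 to 5.13 (median 4.76) in non-breeding males. Its log2 difference was 1.15 (SE 0.30, limma adjusted p = 0.0181), and its groups were apart by a narrow margin. In HVC of treated males its difference was -0.41, and it was not called there.

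Both regions together called 16 members under testosterone, of which 2 were called in both. These were ENSTGUT00000012800 and XR_054016, named after their values were seen. The share of all transcripts called in both regions was not computed, so nothing is read from the count. ENSTGUT00000012800 had HVC levels of 5.30 to 6.18 (median 5.66) in testosterone-treated males, against 6.20 to 6.64 (median 6.53) in non-breeding males, without overlap. XR_054016 had 7.93 to 8.90 (median 8.21) in HVC of testosterone-treated males, against 8.84 to 9.07 (median 8.88) in non-breeding males. Its entopallial levels were 7.96 to 8.94 (median 8.54) in testosterone-treated males, against 9.10 to 9.77 (median 9.28) in non-breeding males. The overlap of this transcript was thus restricted to HVC. The means of 41 members were lower with testosterone in both regions, where 25.6% of all transcripts were, and the same 6 bird numbers of each group recurred in both regions.

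**Figure D4:**
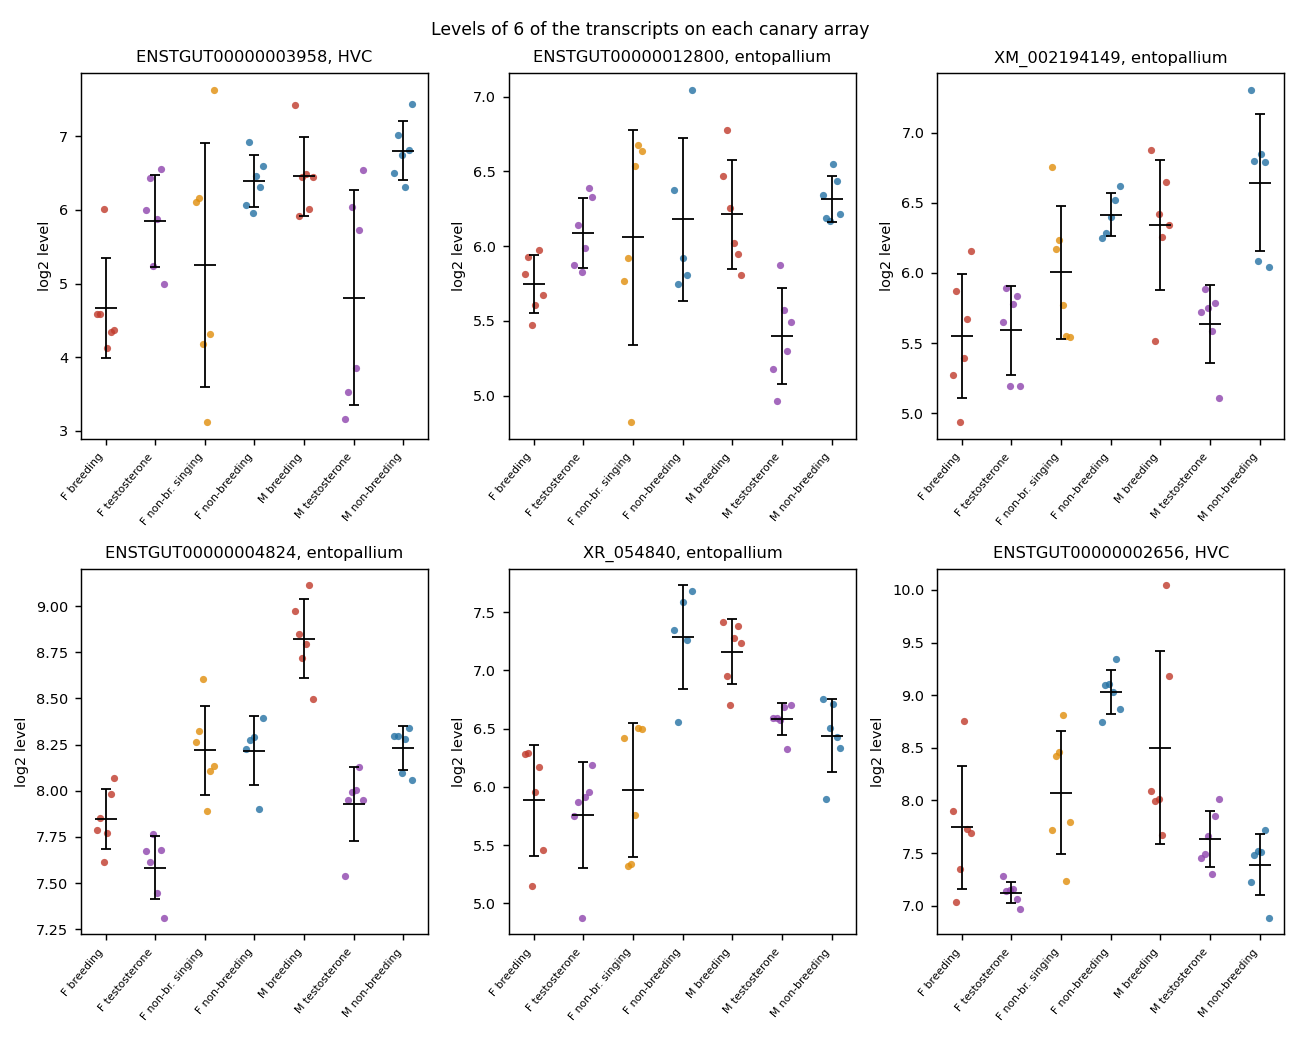
Log2 levels (vertical) of 6 transcripts on each canary array of the region named, with 1 point per bird and the mean and standard deviation in black, for females (F) and males (M) of each group (5 non-breeding females in the entopallium, 6 birds otherwise). ENSTGUT00000012800 and XM_002194149 in testosterone-treated males lie below every non-breeding male, and ENSTGUT00000004824 in breeding males lies above every other male.

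Breeding and testosterone-treated males both sang, and they differed in season, day length, housing and implant. This comparison shares the breeding males with the season comparison and the treated males with the testosterone comparison, so its values are not independent of theirs. In HVC 7 members were called, all higher in breeding males, where 0.568% of all transcripts were called higher. With the limma adjusted p alone, 0 members were lower and 8 higher, where 4.46% and 3.37% of all transcripts were. The part of the larger spread of the members in the call counts of this comparison was not tested. The median difference was 0.16, against -0.02 for all transcripts, and 30 members were below 0, compared with 55.4% of all transcripts. ENSTGUT00000001257 had levels of 6.03 to 6.80 (median 6.48) in breeding males, against 4.79 to 6.32 (median 5.41) in testosterone-treated males, a log2 difference of 0.93 (SE 0.24, limma adjusted p = 0.0360). These groups overlapped, and the adjusted p was 0.0532 to 0.0765 without replicate 2, 3, 4, 5 or 6 of the breeding or 2, 3 or 4 of the treated males. XM_002194149 had 6.07 to 7.003 (median 6.23) in breeding males, against 5.22 to 5.88 (median 5.64) in testosterone-treated males, a log2 difference of 0.78 (SE 0.17, limma adjusted p = 0.0191) without overlap. The count of called members was 4 without replicate 4 of the treated males.

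In the entopallium 11 members were called, 10 higher and 1 lower in breeding males, where 1.26% and 0.741% of all transcripts were. With the limma adjusted p alone, 24 members were higher and 4 lower, where 12.4% and 13.6% of all transcripts were. The median difference was 0.13 (0.08 under quantile normalization), against 0.01 for all transcripts, and 34 members were below 0, compared with 48.7% of all transcripts. The 1st percentile of level was 2.89 to 3.03 on arrays of breeding males, above the 2.73 to 2.82 of testosterone-treated males. The part of this offset was not tested. XM_002189682, the second transcript of the selection, had levels of 6.62 to 7.69 (median 7.10) in breeding males, against 5.54 to 6.60 (median 6.03) in testosterone-treated males, a log2 difference of 1.05 (SE 0.21, limma adjusted p = 0.00403). ENSTGUT00000004824 had 8.49 to 9.11 (median 8.82) in breeding males, against 7.54 to 8.13 (median 7.97) in testosterone-treated males, a log2 difference of 0.90 (SE 0.11, limma adjusted p = 0.000275). Neither of these overlapped.

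The member called lower was XM_002187174, with entopallial levels of 5.17 to 6.47 (median 6.28) in breeding males, against 6.57 to 7.69 (median 7.16) in testosterone-treated males. Its log2 difference was -1.04 (SE 0.24, limma adjusted p = 0.00904), and the groups were apart. Both regions together called 15 members in this comparison, of which 3 were called higher in breeding males in both, namely ENSTGUT00000012800, XM_002194149 and XR_054016, the last chosen after its values were seen. Here too the share of all transcripts called in both was not computed, and nothing is read from the count.

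**Figure D5:**
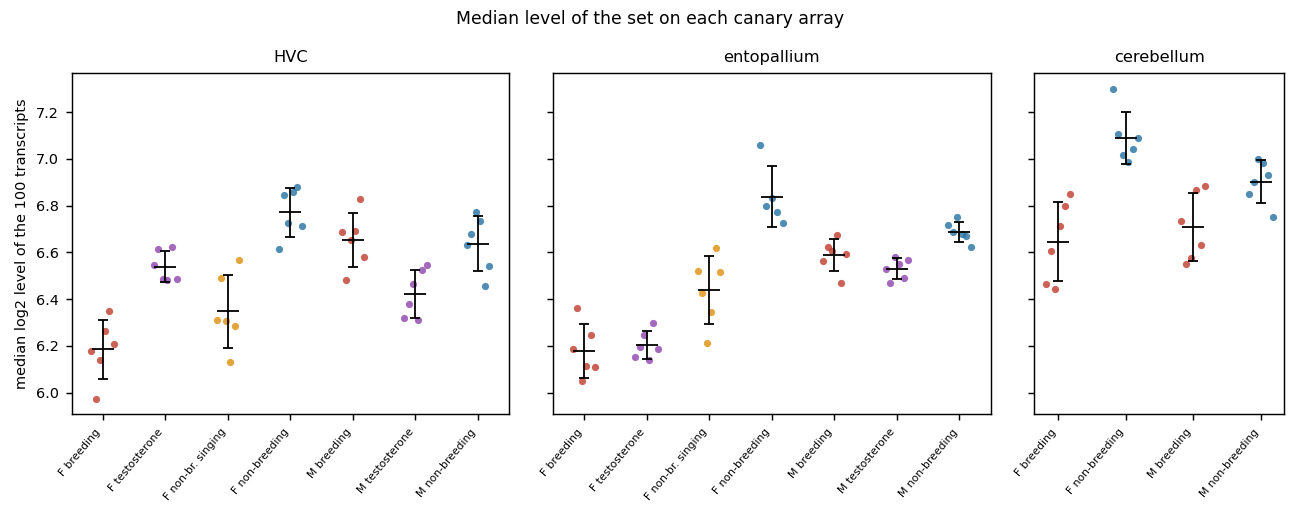
Median log2 level of the 100 transcripts on each canary array (vertical) by group and region, with 1 point per bird and the mean and standard deviation of the group in black. Non-breeding females lie at 6.61 to 7.30 over the 3 regions, above the breeding females of the same region by the selection, and the male groups of HVC and entopallium lie between 6.31 and 6.83.

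The remaining females show where the levels of the set stood when females sang. Their comparisons reuse the non-breeding or breeding females that chose the members, and are given as values alone. Members were chosen as high in these non-breeding and low in these breeding females. The selection thus favours other groups lying below the non-breeding and above the breeding females. Nothing is therefore read from such counts, also where shares of all transcripts stand beside them. Medians by group were taken over the group means of the members, and medians by array over the members on that array. In HVC the median of the members was 6.15 in breeding, 6.51 in testosterone-treated and 6.27 in spontaneously singing females, against 6.79 in non-breeding females. In the entopallium it was 6.12 in breeding, 6.17 in testosterone-treated and 6.16 in spontaneously singing females, against 6.89 in non-breeding females. By array, the member median in the entopallium was 6.05 to 6.36 in breeding, 6.14 to 6.30 in testosterone-treated and 6.21 to 6.62 in spontaneously singing females. The non-breeding females had the highest mean of the 4 female groups for 75 members in HVC and 90 in the entopallium, where 18.6% and 19.7% of all transcripts had this order. Testosterone-treated females were below non-breeding females for 89 members in HVC, with a median difference of -0.23, and for 99 members in the entopallium, with a median of -0.60. Of all transcripts 57.3% and 48.2% were below. Spontaneously singing females were below non-breeding females for 83 members in HVC, with a median of -0.28, and for 91 in the entopallium, with a median of -0.36. The shares of all transcripts were 35.3% and 33.4%, with medians over all transcripts of 0.09 and 0.11. Arrays of the spontaneous singers had a 1st percentile of level between 3.18 and 3.43, above the at most 3.10 of the other canary groups, and its part in these values was not tested. In the entopallium, testosterone-treated females had a 1st percentile of 2.63 to 2.77, below the 2.80 to 2.90 of breeding and of non-breeding females. The part of this offset was not tested either.

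Testosterone-treated females minus breeding females gave a median difference of 0.00 in the entopallium, with 51 members below 0, compared with 56.0% of all transcripts. In HVC this median was 0.34, with 6 members below 0, compared with 52.6% of all transcripts. Spontaneously singing minus breeding females gave a median of 0.21 in the entopallium, with 22 members below 0, compared with 35.5% of all transcripts. In HVC it was 0.32, with 14 members below 0, compared with 32.3% of all transcripts. The sexes were set side by side in the same way. These comparisons too reuse the females that chose the members. The selection thus favours males lying above breeding and below non-breeding females. Breeding males were above breeding females for all but 2 members in HVC (median 0.46), all but 4 in the entopallium (median 0.45) and all but 21 in the cerebellum (median 0.13). Of all transcripts 48.6%, 52.2% and 43.4% were lower in breeding males. Non-breeding males were below non-breeding females for 73, 75 and 66 members in the same regions, with medians of -0.11, -0.17 and -0.12. Among all transcripts 49.6%, 41.0% and 44.6% were below. Both male means lay between the breeding and the non-breeding female mean for 50 members in HVC, 45 in the entopallium and 36 in the cerebellum. The share of all transcripts with both male means in between was not computed. Nothing is read from these counts of males against females.

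In the other species, measured while breeding, the median of the members in HVC was 5.91 in males and 5.88 in females of the cordon-bleu, and 6.67 in males and 6.80 in females of the forest weaver. In the entopallium it was 6.17 in males and 6.28 in females of the cordon-bleu, and 6.57 in males and 6.74 in females of the weaver. These levels rest on hybridisation of another species' RNA to zebra finch probes and were not compared with the canary levels.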

How the data were processed

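Log2 transcript levels were used as deposited by the authors, who hybridised RNA of dissected tissue from single birds to an exon array built from zebra finch probes. Affymetrix Expression Console is named in the submitters' processing notes. Neither its version nor how background and summarisation were set is given in the sources used here. No filter or further scaling was applied. Cross-species hybridisation can lower the level of a transcript whose sequence differs from the probes, and low levels approach the background of the array. The number of arrays limits the precision.

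Groups followed the characteristics of the samples. The treatment protocol of the testosterone birds states no treatment, in conflict with their characteristics, which were followed. All 6 arrays labelled as non-breeding non-singing females in HVC entered, although the study lists 5.

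Pairs of groups were tested in R 4.3.3 by limma 3.58.1 with its lmFit and eBayes functions and Benjamini-Hochberg adjustment over all 26061 transcripts, since the probe-level test of the study could not be run on transcript levels. A call needed a log2 difference of at least 0.5 in size besides an adjusted p under 0.05. The fit was tested on simulated data with known changes. Alternatives were total intensity scaling, quantile normalization, removal of the dimmest 25% of transcripts, each criterion of the call alone, a replicate block, bird as a random block, a trended and robust variance, and each array left out.

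The members and the lists were chosen with earlier results of these data known. The plan was to name the first 10 of the selection and the called members with the lowest and highest difference in each male comparison. Only the first 2 of the selection, and at most 2 that rose and 2 that fell in a comparison, were named, because the identifiers carry no gene names. Where 0 members were called, and where the report says so, transcripts were named after their values were seen. For the same reason the lists of pathway genes and cell type markers could not be applied, and sequences were not used here.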

Additional observations from a re-analysis of the deposited data

Results flagged for a closer look

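The season difference of males differed between regions for some members. By the limma interaction 2 members were called between HVC and entopallium, where 0.695% of all transcripts were. Between entopallium and cerebellum 8 were called, where 1.78% of all transcripts were, and between HVC and cerebellum 0. With an array left out these counts were 1 to 3, 4 to 14 and 0. XR_054840 was called with -0.91 for HVC minus entopallium and 1.27 for entopallium minus cerebellum on the log2 scale, and ENSTGUT00000004824 with 1.07 for entopallium minus cerebellum. Single birds that stood far from their group were looked for in 62 sets of 4 to 10 arrays, and 3 were found, where chance gives about 1 in 20. ENSTGUT00000014768 was at 3.22 in the cerebellum of non-breeding male replicate 6, the others being at 5.19 to 5.99. ENSTGUT00000004824 was at 7.54 in the entopallium of testosterone-treated male replicate 1, the others being at 7.95 to 8.13. ENSTGUT00000003958 was at 6.01 in HVC of breeding female replicate 3, the others being at 4.12 to 4.59.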

How the results depend on the processing

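Counts of called members depended on the rule for a call. For the log2 difference alone and the adjusted p alone, the share of all transcripts called by the same rule stands in brackets. With the log2 difference alone the counts were 7 (0.587%) for season in male HVC, 10 (1.67%) in the entopallium and 11 (0.652%) in the cerebellum, 14 (2.12%) and 19 (2.06%) for testosterone in HVC and entopallium, and 18 (2.65%) for breeding against testosterone in HVC. They were 15 (1.97%), 8 (1.58%) and 22 (3.73%) for the interactions HVC minus entopallium, HVC minus cerebellum and entopallium minus cerebellum. By direction, season in male HVC had 1 lower (0.365%) and 6 higher (0.223%). The entopallium had 5 lower (0.733%) and 5 higher (0.932%), and the cerebellum 7 lower (0.269%) and 4 higher (0.384%). Testosterone had 12 lower (0.955%) and 2 higher (1.16%) in HVC, and 15 lower (1.44%) and 4 higher (0.622%) in the entopallium. The part of the larger spread of the members in these counts was not tested. With the adjusted p alone the counts were 13 (13.9%) for season and 16 (20.8%) for testosterone in the entopallium, 28 (25.9%) for breeding against testosterone there and 4 (3.35%) for HVC minus entopallium. Without the dimmest 25% of transcripts they were 5 for season in the entopallium and 4 for breeding against testosterone in HVC. That removal took out 41 members, so these counts are of the members left. No share of all transcripts is given for it or for the scalings. Total intensity scaling and quantile normalization each gave 1 for HVC minus entopallium, and no scaling moved the median of all transcripts by over 0.1.

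Same-numbered birds of 2 groups correlated at -0.47 to 0.34 in their deviations, and the pairs were over 0.1 in no comparison but season in the cerebellum (3 of 6), so the numbers were not taken as pairs. With the number as a replicate block, the count for testosterone in HVC was 0 in place of 9, and the adjusted p was 0.0730 for ENSTGUT00000003958 and 0.0960 for ENSTGUT00000001257. The block gave 3 for season in the entopallium, 10 for testosterone there, 8 and 11 for breeding against testosterone in HVC and entopallium, 2 for HVC minus entopallium, 8 for entopallium minus cerebellum and 0 for the other comparisons. No share of all transcripts is given for the block or for the counts with an array left out. Changes in those counts therefore cannot be set against the whole array.

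With each array left out, the counts were 0 to 1, 3 to 5 and 0 to 2 for season in HVC, entopallium and cerebellum, 4 to 12 and 6 to 10 for testosterone in HVC and entopallium, 4 to 9 and 9 to 13 for breeding against testosterone in these regions, 1 to 3 for HVC minus entopallium, 0 for HVC minus cerebellum and 4 to 14 for entopallium minus cerebellum. Outside the interactions, the differences of the named transcripts kept their sign in all 281 alternatives, and 30 lost their call, all of ENSTGUT00000003958 or ENSTGUT00000001257. Single transcripts of the interactions were not followed in this way. Under quantile normalization ENSTGUT00000001257 had an adjusted p of 0.0534 for testosterone in HVC.

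The selection itself kept 98 members under total intensity scaling, 93 under quantile normalization, 59 without the dimmest 25% of transcripts and 97 without the HVC female that has no entopallium array. It kept 84 to 99 with a female array left out, fewest without non-breeding replicate 2 of the cerebellum. The first 50 and 200 transcripts of the selection held 1 and 4 called for season in the male entopallium and 0 in HVC and cerebellum. Of the members, 41 were in the lowest quartile of level, where signals approach the background of the array.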
